A study of Mus musculus with 6 samples.

Results

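The transcripts described here encode the core autophagy machinery and its cargo receptors. They are 37 genes, found by symbol among the 36706 genes listed in each deposited table, and each of the 37 had 1 row and passed the filter on low counts, as did 14011 genes in all. RNA was sequenced from wild-type mouse cells grown from bone marrow with 20 ng/mL GM-CSF, the cytokine that drives marrow precursors towards dendritic cells and macrophages. Of 6 libraries, 3 were made from cells that received IFN-γ (interferon gamma) plus 4-OI (4-octyl itaconate), an ester of the metabolite itaconate that enters cells, and 3 from cells that received IFN-γ alone. There was no group without IFN-γ, and neither dose nor duration is stated. Nothing says that replicates were separate animals or cultures, so the p-values reflect only library-to-library spread, which may be technical. By title these are bone marrow macrophages, whereas the other labels and the growth protocol name dendritic cells.

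Autophagy encloses cytoplasm in a new double membrane and delivers it to lysosomes. The ULK kinase complex starts the process, a lipid kinase complex built on VPS34 and Beclin 1 makes the lipid PI3P on the growing membrane, and WIPI and ATG2 proteins bind that lipid and feed more lipid to the membrane. A ubiquitin-like conjugation system then attaches the ATG8 proteins, the LC3s and GABARAPs, to the membrane, where cargo receptors such as NBR1 and optineurin dock. In dendritic cells and macrophages the pathway is known for clearing intracellular microbes and for supplying cytosolic antigens to lysosomes.

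Libraries held 19656368 to 29244717 counts, at which 3 counts correspond to 0.103 to 0.153 units of CPM (counts scaled to library size), far below the levels of the genes described. Of 8 markers of conventional dendritic cells all were detected, Itgax, Flt3 and Zbtb46 among them, and 7 fell with 4-OI. All 8 summed to 4918 to 5718 CPM with 4-OI and 6347 to 7617 CPM with IFN-γ alone, with Cd74, which did not pass, the most abundant. Most of that sum came from Cd74, H2-Aa and H2-Ab1, with means of 2667, 1364 and 893 CPM with 4-OI. Their means with IFN-γ alone were 3009, 2034 and 1305 CPM. These 3 antigen presentation genes are not confined to dendritic cells, so the sum does not measure how many such cells were present. Macrophage markers were also present, at 3318 to 3433 CPM with 4-OI and 2230.1 to 2451 CPM without, a difference carried by Adgre1 and Cd14, which rose. The other 6 of 8 did not pass, 5 of them with fitted changes below 0, and the median log2 fold change of the 8 was -0.30. The 4 monocyte markers and the 5 markers of mast cells and basophils fell, summing to 352 to 526 and 62.1 to 70.3 CPM with 4-OI, against 1083 to 1443 and 189 to 198 CPM without. Neutrophil markers went both ways, at 1938 to 2668 CPM with 4-OI and 1534 to 2267 CPM without, while B, T and NK cell markers summed to 3.83 to 4.52 CPM with 4-OI and 4.95 to 5.74 CPM without, and erythroid markers to at most 0.165 and 0.509 CPM. The part of these shifts in the results below was not tested, and in bulk RNA fewer cells of a type and less RNA per cell cannot be told apart.

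IFN-γ replicate 1 and IFN-γ+4-OI replicate 3 stood apart from the other libraries of their groups on the second principal component, which held 10.7% of the variance. Among the autophagy genes the deviation of IFN-γ replicate 1 followed transcript length. The 10 genes with the fewest exon bases, 980 to 2447, were all lower in it than in the mean of IFN-γ replicates 2 and 3, with a median log2 ratio of -0.32. Of the 10 with the most exon bases, 5309 to 15963, 9 were higher, with a median of 0.21. Over the 37 genes, which share these libraries, Spearman's rho between exon bases and that ratio was 0.83 and Pearson's r with log10 exon bases was 0.79. For IFN-γ+4-OI replicate 3 against replicates 1 and 2 they were -0.44 and -0.49. For the log2 fold change between the groups, over all libraries, they were -0.15 and -0.21. The 5 ATG8 genes are short and Pik3c3, Atg4c and Ulk2 are among the longest, so values without both libraries are given below for named genes with a call whose log2 fold change they moved by over 1.5 times, and for Rb1cc1, Atg2b, Atg5 and Gabarap.

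**Figure D1:**
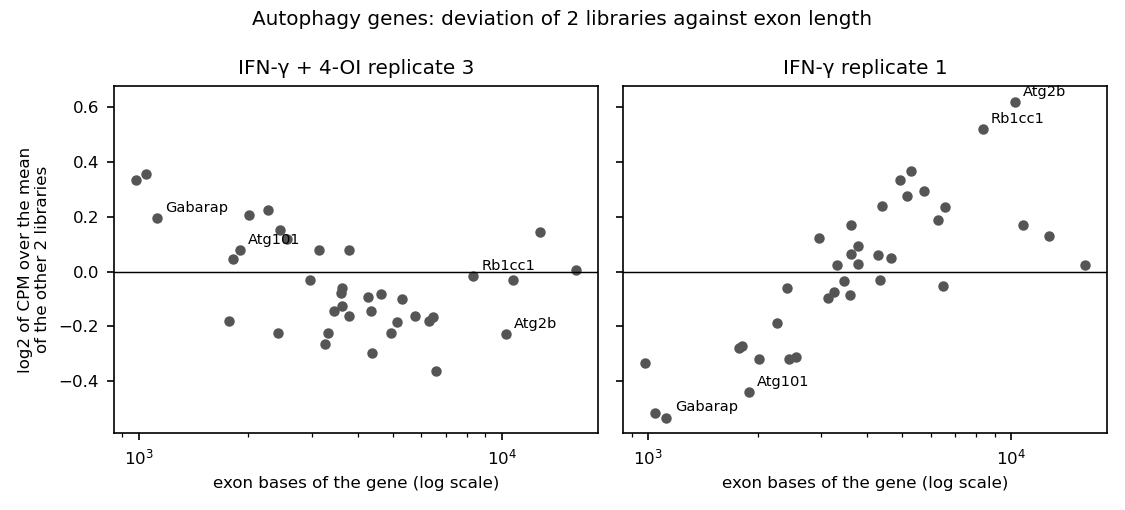
For each of the 37 autophagy genes, the log2 ratio of its CPM in 1 library to the mean of the other 2 libraries of the group (y axis) is plotted against the exon bases of the gene (x axis, log scale), for IFN-γ+4-OI replicate 3 on the left and IFN-γ replicate 1 on the right. In IFN-γ replicate 1 the short genes lie below 0 and most long genes above it, with rho 0.83, and in IFN-γ+4-OI replicate 3 the order is the opposite, with rho -0.44.

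The comparison asked which of these genes differed in level between cells given IFN-γ with 4-OI and cells given IFN-γ alone. With 4-OI, 18 of the 37 rose and 4 fell at a Benjamini-Hochberg adjusted p under 0.05 by edgeR's quasi-likelihood test, and 15 did not pass. Over all 14011 genes tested the share called was 48.1%, with 22.7% higher and 25.4% lower, against 59.5%, 48.6% and 10.8% of the autophagy genes. Their median log2 fold change was 0.27, against -0.01 for all genes tested. The changes were small: 8 of 37, or 21.6%, passed with at least a 1.5-fold change, against 31.2% of all genes, and 1 of 37, Gabarapl1, with at least a 2-fold change, against 17.5%. The 3 libraries of 1 group did not overlap those of the other for 25 of 37 genes, 20 higher and 5 lower with 4-OI, against 59.5% of all genes.

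By step, 4 of 5 genes of the ULK complex rose, as did 3 of 5 for PI3P effectors and lipid transfer, 4 of 5 of the ATG8 family and 3 of 4 cargo receptors. In the PI3P kinase complex and its regulators 1 of 6 rose and 1 fell, and among the conjugation enzymes and proteases 3 of 11 rose and 1 fell. Median log2 fold changes were 0.48 for the ULK complex, -0.04 for the kinase complex and 0.48 for PI3P effectors and lipid transfer. They were 0.15 for conjugation, 0.64 for the ATG8 family and 0.58 for the cargo receptors. The ATG8 median is the value of the short gene Map1lc3a, which was 0.37 without IFN-γ replicate 1 and IFN-γ+4-OI replicate 3. With libraries scaled by total counts alone, the median of all genes tested moved to -0.27 and that of the autophagy genes to 0.01, since other factors shift all genes by nearly the same amount. Under that scaling 8 of the 18 rises and all 4 falls were kept. The scaling factors of the main test (TMM) were 0.861 to 0.945 with 4-OI and 1.07 to 1.13 with IFN-γ alone. In deposited TPM, scaled within each library by exon length and total, Ulk2 and Atg4b averaged lower with 4-OI. Their means were 7.10 against 7.56 and 23.4 against 24.6. Optn was close, at 9.44 against 9.23, and the other genes called higher also averaged higher in TPM. Without IFN-γ replicate 1 and IFN-γ+4-OI replicate 3 all 22 calls were kept and 7 genes were added, Rb1cc1, Atg7, Atg16l2 and Stx17 as higher and Atg3, Atg10 and Atg16l1 as lower.

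**Figure D2:**
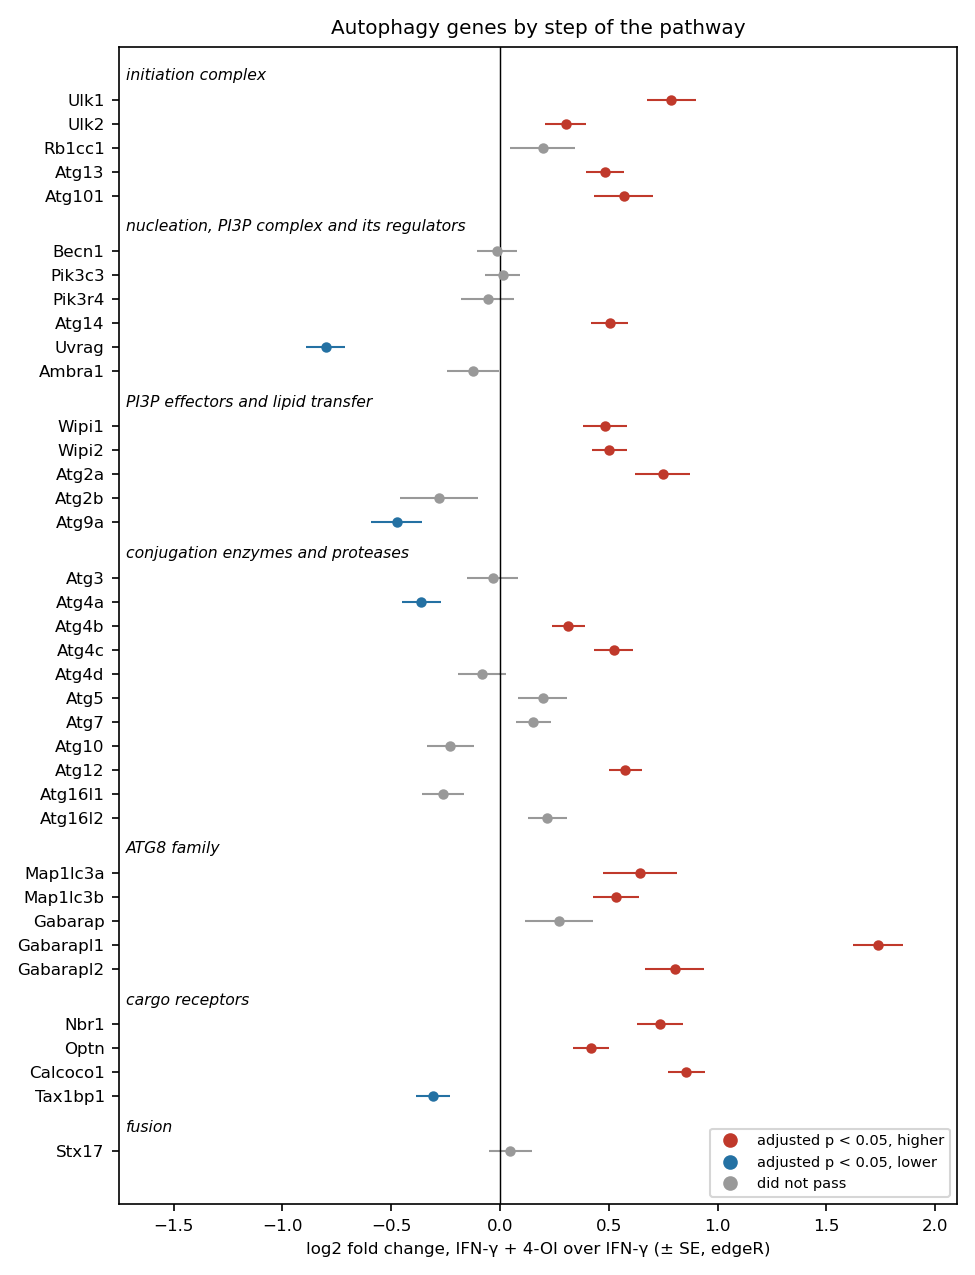
Log2 fold change of each of the 37 autophagy genes, IFN-γ+4-OI over IFN-γ, from edgeR with 3 libraries a group (x axis; points, with bars of 1 SE), grouped by step from top to bottom. Red points are the 18 genes higher and blue points the 4 genes lower at an adjusted p under 0.05, and grey points are the 15 that did not pass. Gabarapl1 lies farthest to the right at 1.74 and Uvrag farthest to the left at -0.80.

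Promoters were matched for 31 of the 37 genes in RefSeq (GRCm38.p6), as windows of 300 bases with 250 before and 50 after the start. They were searched on both strands for CACGTG, the core of the CLEAR element bound by TFEB, the transcription factor known for driving lysosome and autophagy genes, and for TGACNNNGC, the core of the antioxidant response element. The first was found in 4 of 31 genes, or 12.9%, against 8.09% of 27025 genes with a window, and the second in 4 of 31, again 12.9%, against 14.0%. By single windows the shares of all 32851 were 7.15% and 12.4%. CACGTG stood in Atg14, which rose, and in Atg3, Atg5 and Atg7, which did not pass, and TGACNNNGC in Atg13, Ulk2 and Map1lc3b, which rose, and in Tax1bp1, which fell. On chromosome 6, the Atg7 window lies farther downstream of the deposited gene start than those of Gabarapl1 and Tax1bp1. The Atg7 window may therefore be inside the gene. The 250 bases before the start are shown for the genes with the largest rise and the largest fall, Gabarapl1 (chr6:129532942-129533191, plus strand) and Uvrag (chr7:99141145-99141394, minus strand), in which neither motif was found. Those of Atg13 (chr2:91710593-91710842, minus strand) and Ulk2 (chr11:61855093-61855342, minus strand) are shown for TGACNNNGC, and that of Atg3 (chr16:45158579-45158828, plus strand) for its pair of CACGTG matches. Sequences run 5′ to 3′ on the strand of the gene, with motif matches in capitals.
Gabarapl1: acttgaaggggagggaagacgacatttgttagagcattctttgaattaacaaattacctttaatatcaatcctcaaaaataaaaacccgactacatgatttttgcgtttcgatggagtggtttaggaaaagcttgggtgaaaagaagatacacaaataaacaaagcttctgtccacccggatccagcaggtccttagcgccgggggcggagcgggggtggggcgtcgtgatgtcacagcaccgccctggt
Uvrag: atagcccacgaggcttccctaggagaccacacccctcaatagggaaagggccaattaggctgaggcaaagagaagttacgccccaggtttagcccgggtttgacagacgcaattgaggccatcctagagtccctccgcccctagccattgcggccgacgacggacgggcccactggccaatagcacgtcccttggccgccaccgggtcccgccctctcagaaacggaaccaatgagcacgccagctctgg
Atg13: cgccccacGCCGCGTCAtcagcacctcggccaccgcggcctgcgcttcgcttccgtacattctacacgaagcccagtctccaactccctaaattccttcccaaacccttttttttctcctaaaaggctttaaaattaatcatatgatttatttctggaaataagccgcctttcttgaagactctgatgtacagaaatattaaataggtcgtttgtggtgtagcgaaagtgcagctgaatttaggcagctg
Ulk2: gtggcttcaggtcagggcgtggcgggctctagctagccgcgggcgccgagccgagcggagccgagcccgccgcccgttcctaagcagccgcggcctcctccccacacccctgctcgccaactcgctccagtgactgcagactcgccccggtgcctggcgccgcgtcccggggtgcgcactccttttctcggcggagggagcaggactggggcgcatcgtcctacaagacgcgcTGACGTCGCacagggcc
Atg3: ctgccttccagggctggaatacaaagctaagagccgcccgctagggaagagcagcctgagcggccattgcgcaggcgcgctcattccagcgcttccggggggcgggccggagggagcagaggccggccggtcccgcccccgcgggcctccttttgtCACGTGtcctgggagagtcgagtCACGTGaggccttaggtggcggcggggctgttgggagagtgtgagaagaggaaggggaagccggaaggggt

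ULK1 and ULK2 are the protein kinases that start autophagy, and ATG13, ATG101 and FIP200, which Rb1cc1 encodes, hold the complex together. Ulk1 (chromosome 5, 110932355 to 110957991, minus strand, as the deposited tables give it) had 65.8, 72.7 and 61.8 CPM with 4-OI, against 44.1, 35.0 and 36.98 CPM with IFN-γ alone. Every library with 4-OI lay above every library without it, and the log2 fold change was 0.79 ± 0.11 (SE; edgeR adjusted p = 0.000816). Ulk2 had 46.2, 40.6 and 42.5 CPM with 4-OI, against 37.7, 32.6 and 34.6 CPM with IFN-γ alone (log2 fold change 0.30 ± 0.09; edgeR adjusted p = 0.0292). The groups did not overlap, but the call on Ulk2 did not hold under total-count scaling, nor when 1 of 4 libraries was left out, IFN-γ+4-OI replicates 1 and 3 and IFN-γ replicates 2 and 3 (edgeR adjusted p up to 0.774 over all settings). Atg13 and Atg101 rose by 0.48 and 0.57 on the log2 scale (adjusted p = 0.00227 and 0.00967 by edgeR); total-count scaling ended both calls. Rb1cc1 averaged 58.8 ± 2.12 CPM with 4-OI and 51.3 ± 11.3 CPM with IFN-γ alone (SD, n = 3 each) and did not pass, with IFN-γ replicate 1 at 64.3 CPM above every library with 4-OI. Without IFN-γ replicate 1 it passed as higher, its log2 fold change then being 0.38, and 0.39 without IFN-γ+4-OI replicate 3 as well, against 0.20 over all libraries.

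The kinase complex divides into forms that share VPS34 (Pik3c3), VPS15 (Pik3r4) and Beclin 1 and differ in 1 further subunit: ATG14 marks the form that acts on new autophagosomes, and UVRAG the form known from endosomes and later steps. The shared subunits did not pass. Becn1 had 71.6, 74.1 and 62.3 CPM with 4-OI, against 68.0, 68.5 and 73.3 CPM with IFN-γ alone, overlapping groups (log2 fold change -0.01 ± 0.09; edgeR adjusted p = 0.919). The log2 fold changes of Pik3c3 and Pik3r4 were 0.01 ± 0.08 and -0.06 ± 0.12, and that of Ambra1, which encodes a Beclin 1 partner, was -0.12 ± 0.12. Of Becn1, 18.4% of exon bases overlap Cntd1 on the opposite strand, which had 227 counts over all libraries against 10340 for Becn1.

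The subunits that tell the forms apart moved in opposite directions. Atg14 had 32.2, 33.3 and 29.6 CPM with 4-OI, against 22.0, 22.2 and 22.9 CPM with IFN-γ alone, without overlap (log2 fold change 0.50 ± 0.08; edgeR adjusted p = 0.00164), which did not hold under total-count scaling. Uvrag (chromosome 7, 98535949 to 98790373, minus strand) had 39.1, 40.5 and 36.5 CPM with 4-OI, against 72.7, 64.7 and 64.7 CPM with IFN-γ alone. All 3 libraries with 4-OI were below those without, and Uvrag was 1.74-fold lower (log2 fold change -0.80 ± 0.09; edgeR adjusted p = 0.000206), a call kept under all 15 alternatives.

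WIPI1 and WIPI2 bind PI3P, ATG2A and ATG2B pass lipid to the growing membrane, and ATG9A is the membrane protein whose vesicles seed it. Wipi1 and Wipi2 rose by alike amounts, by 0.48 ± 0.10 and 0.50 ± 0.08 on the log2 scale (adjusted p = 0.00494 and 0.00117 by edgeR), and neither call held under total-count scaling. Atg2a (chromosome 19, 6291508 to 6312334, plus strand) had 86.9, 85.8 and 67.1 CPM with 4-OI, against 52.9, 44.6 and 45.3 CPM with IFN-γ alone. The lowest library with 4-OI was above the highest without, and the log2 fold change was 0.75 ± 0.13 (edgeR adjusted p = 0.00177). Its paralog Atg2b did not pass, at 51.7 ± 4.75 CPM with 4-OI and 62.9 ± 16.8 CPM with IFN-γ alone, where replicate 1 stood at 81.9 CPM and replicates 2 and 3 at 50.5 and 56.1 CPM. Its log2 fold change was -0.28 ± 0.18 over all libraries and 0.03 ± 0.06 without IFN-γ replicate 1 and IFN-γ+4-OI replicate 3. Atg9a fell, with 39.1, 39.2 and 31.9 CPM with 4-OI, against 56.9, 48.2 and 48.1 CPM with IFN-γ alone (log2 fold change -0.47 ± 0.12; edgeR adjusted p = 0.0109), and kept that call under all 15 alternatives. Its log2 fold change was -0.30 without both of the libraries that stood apart.

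In the conjugation system ATG7 is the activating enzyme, ATG3 and ATG10 are the transfer enzymes, and ATG12, joined to ATG5 and held by ATG16L1, directs ATG8 proteins to the membrane. Atg12 rose, with 129, 129 and 136 CPM with 4-OI, against 84.2, 91.9 and 88.2 CPM with IFN-γ alone, the groups lying well apart (log2 fold change 0.58 ± 0.08; edgeR adjusted p = 0.000513). The partners and enzymes did not pass. Atg5 had 66.3, 62.3 and 71.4 CPM with 4-OI, against 49.97, 61.0 and 63.7 CPM with IFN-γ alone (edgeR adjusted p = 0.187), and Atg7 had 64.8, 64.6 and 58.6 CPM, against 55.6, 55.9 and 57.7 CPM (edgeR adjusted p = 0.153). The log2 fold change of Atg5 was 0.20 over all libraries and 0.04 without both of the libraries that stood apart. The Atg7 groups did not overlap, yet its log2 fold change was 0.15 ± 0.08, and 14.0% of its exon bases overlap Vgll4 on the opposite strand. Vgll4 had 5593 counts over all libraries against 8813 for Atg7. Atg3 and Atg10 had log2 fold changes of -0.03 ± 0.12 and -0.23 ± 0.11. Atg16l1 had a value of -0.26 ± 0.10 (edgeR adjusted p = 0.0530) and passed as lower under 6 of 15 alternatives. Atg16l2, its paralog, had a value of 0.22 ± 0.09 (edgeR adjusted p = 0.0832).

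The ATG4 proteases trim ATG8 proteins before conjugation and release them afterwards, and their transcripts went different ways. Atg4b and Atg4c rose, by 0.31 ± 0.08 and 0.52 ± 0.09 on the log2 scale (adjusted p = 0.0107 and 0.00193 by edgeR), neither of which held under total-count scaling. Atg4a fell by 0.36 on the log2 scale (edgeR adjusted p = 0.0107), a call lost without IFN-γ+4-OI replicate 1. Atg4d, of whose exon bases 24.3% overlap Kri1 on the opposite strand, did not pass, with a log2 fold change of -0.08. Kri1 had 4236 counts over all libraries against 1737 for Atg4d, and its part in the Atg4d values was not tested. Levels of different genes are compared here by TPM, in which counts are divided by exon length, and as shares within a library. Atg4b made up 48.5 ± 0.825% of the summed TPM of the 4 protease genes with 4-OI and 41.9 ± 0.179% with IFN-γ alone, and Atg4a 23.3 ± 0.927% and 32.1 ± 0.714% (SD, n = 3 each).

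The ATG8 proteins are the tags on the autophagosome membrane, the LC3s being best known for its growth and the GABARAPs for later steps and for docking ULK1. The largest change among the 37 genes was that of Gabarapl1 (chromosome 6, 129510155 to 129519294, plus strand), with 609.7, 635 and 550.0 CPM with 4-OI, against 157, 184 and 198 CPM with IFN-γ alone. The lowest library with 4-OI was more than double the highest without. Its log2 fold change was 1.74 ± 0.11 (edgeR adjusted p = 1.46e-05), and 1.48 to 1.83 over the 15 alternatives. Gabarapl2 (chromosome 8, 112667335 to 112679547, plus strand) had 57.4, 58.7 and 73.1 CPM with 4-OI, against 30.8, 39.6 and 38.0 CPM with IFN-γ alone (log2 fold change 0.80 ± 0.13; edgeR adjusted p = 0.00174). Its groups did not overlap, and its call was kept under all 15 alternatives.

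Map1lc3b, which encodes the LC3 protein most used as an autophagosome marker, had 235, 233 and 255 CPM with 4-OI, against 143, 179 and 177 CPM with IFN-γ alone (log2 fold change 0.53 ± 0.11; edgeR adjusted p = 0.00394). Map1lc3a (chromosome 2, 155118284 to 155119993, plus strand) had 33.0, 36.3 and 44.4 CPM with 4-OI, against 18.9, 25.5 and 28.4 CPM with IFN-γ alone (log2 fold change 0.64 ± 0.17; edgeR adjusted p = 0.0149). Both were higher in every library with 4-OI, but the call on Map1lc3a did not hold under total-count scaling or without IFN-γ+4-OI replicate 3. Without that library and IFN-γ replicate 1 its log2 fold change was 0.37, and it passed. Gabarap had 665, 701 and 782 CPM with 4-OI, against 458, 682 and 642 CPM with IFN-γ alone, overlapping groups (log2 fold change 0.27 ± 0.16; edgeR adjusted p = 0.189). The lowest value was that of IFN-γ replicate 1, without which the log2 fold change was 0.11, and it was 0.05 without IFN-γ+4-OI replicate 3 as well. Reads that these close relatives, or processed copies of them, may share were not measured.

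Within the family the make-up of the transcripts differed between the groups. Gabarap was the most abundant per exon length in every library, followed by Gabarapl1. Gabarapl1 made up 30.8%, 30.6% and 25.3% of the summed TPM of the 5 genes with 4-OI, against 14.7%, 12.2% and 13.6% with IFN-γ alone. Gabarap made up 53.0%, 53.5% and 57.0% with 4-OI, against 67.8%, 71.8% and 69.9% with IFN-γ alone. Neither range overlapped, and by a two-sided exact permutation test each difference had p = 0.1, the smallest that 3 libraries against 3 allow. Map1lc3b made up 8.04 ± 0.226% with 4-OI and 8.67 ± 0.554% with IFN-γ alone, Gabarapl2 5.48 ± 0.531% and 4.91 ± 0.272%, and Map1lc3a 3.09 ± 0.336% and 3.07 ± 0.228% (SD, n = 3 each; exact permutation p = 0.1, 0.2 and 1.0). Those 3 shares moved by less than 1 percentage point, against 15.4 for Gabarapl1.

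**Figure D3:**
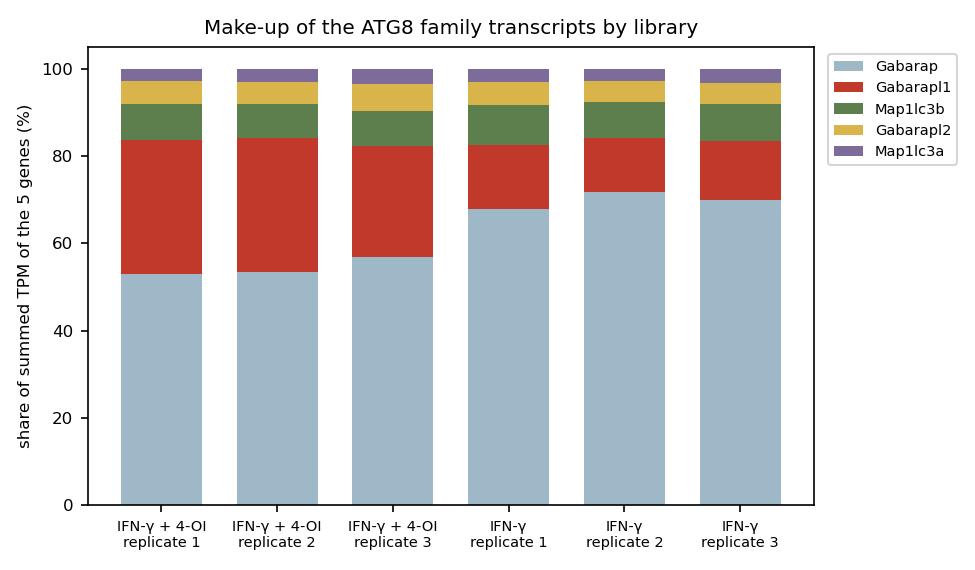
Share of each ATG8 gene in the summed TPM of the 5 genes (y axis, %), stacked for each library (x axis), with the 3 libraries given IFN-γ+4-OI on the left and the 3 given IFN-γ on the right. The red segment, Gabarapl1, takes 25.3% to 30.8% with 4-OI and 12.2% to 14.7% with IFN-γ alone, while the grey-blue segment, Gabarap, takes 53.0% to 57.0% and 67.8% to 71.8%.

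Cargo receptors bind a load and an ATG8 protein at once. NBR1 and optineurin carry ubiquitin-tagged cargo, TAX1BP1 is known for ubiquitin-tagged aggregates and for restraining inflammatory signalling, and CALCOCO1 is a receptor for parts of the endoplasmic reticulum. Nbr1 (chromosome 11, 101442933 to 101472777, plus strand) had 202, 197 and 176 CPM with 4-OI, against 130.5, 107 and 109 CPM with IFN-γ alone (log2 fold change 0.73 ± 0.11; edgeR adjusted p = 0.000792). Calcoco1 (chromosome 15, 102615212 to 102630616, minus strand) had 67.6, 74.1 and 67.1 CPM with 4-OI, against 36.996, 38.1 and 40.3 CPM with IFN-γ alone (log2 fold change 0.86 ± 0.08; edgeR adjusted p = 0.000109). Both were higher in all 3 libraries with 4-OI than in any without, and kept their calls under all 15 alternatives. Optn averaged 24.8 ± 1.05 CPM with 4-OI and 18.5 ± 0.369 CPM with IFN-γ alone (SD, n = 3 each; edgeR adjusted p = 0.00363), which did not hold under total-count scaling. Tax1bp1 fell, with 325, 321 and 341 CPM with 4-OI, against 412, 409 and 399 CPM with IFN-γ alone (log2 fold change -0.31 ± 0.08; edgeR adjusted p = 0.0118). Its groups did not overlap, but the call did not hold with unfiltered counts, nor when 1 of 3 libraries was left out, IFN-γ+4-OI replicates 1 and 2 and IFN-γ replicate 3. Tax1bp1 remained the most abundant of the 4 per exon length, at 58.4 ± 2.18% of their summed TPM with 4-OI and 74.4 ± 1.06% with IFN-γ alone, while Nbr1 made up 25.02 ± 1.72% and 15.5 ± 1.39% and Calcoco1 13.0 ± 0.706% and 7.39 ± 0.494%. The receptor gene Sqstm1, described below, is not part of these shares. Its mean was 981 TPM with 4-OI and 236 TPM with IFN-γ alone, against 263 and 335 TPM for the 4 together.

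Stx17 encodes the SNARE protein that fuses closed autophagosomes with lysosomes. It had 39.5, 37.5 and 33.9 CPM with 4-OI, against 38.9, 33.1 and 35.2 CPM with IFN-γ alone, overlapping groups (log2 fold change 0.05 ± 0.10; edgeR adjusted p = 0.716).

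**Figure D4:**
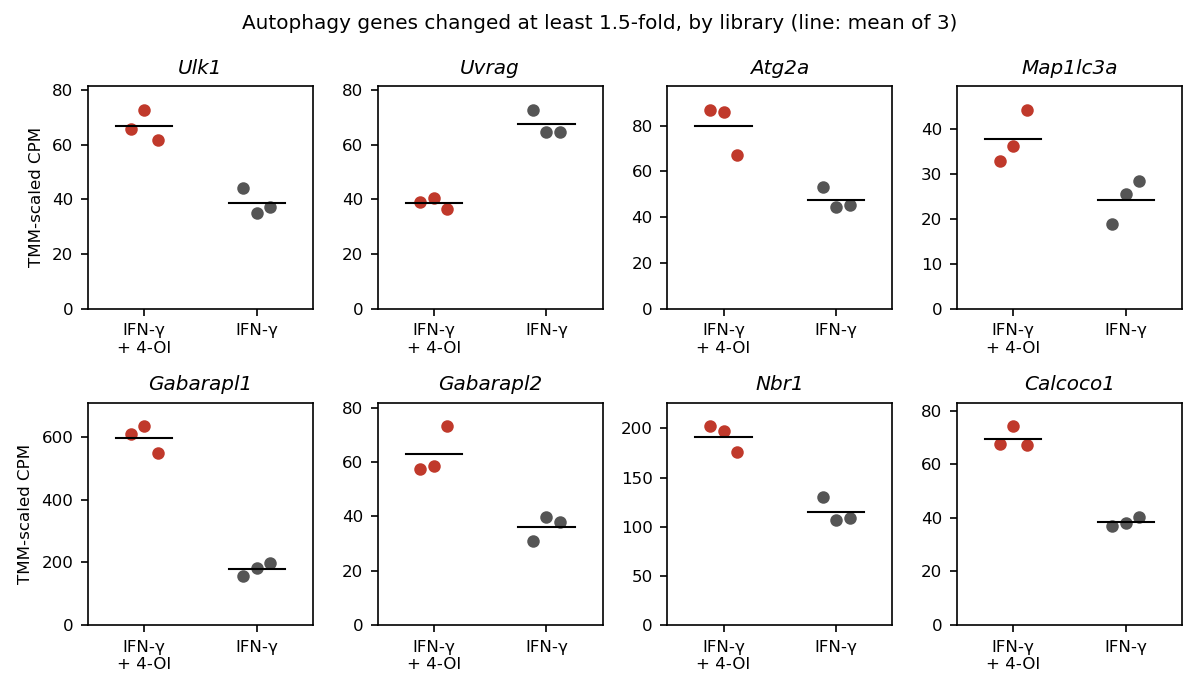
TMM-scaled CPM (y axes, from 0) of the 8 autophagy genes that passed with at least a 1.5-fold change, with IFN-γ+4-OI libraries on the left and IFN-γ libraries on the right of each panel. Points are libraries in the order of their replicate numbers and lines are means of 3. Groups do not overlap in any panel, and Uvrag is the one gene that is lower with 4-OI.

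Several of these genes come in paralog pairs, whose TPM ratio within a library does not depend on how libraries are scaled. The ratio of Atg2a to Atg2b was 2.44, 2.51 and 2.25 with 4-OI, against 1.007, 1.37 and 1.26 with IFN-γ alone, the widest shift but that of Gabarapl1 to Gabarap, which was 0.581, 0.573 and 0.445 with 4-OI, against 0.217, 0.171 and 0.195 with IFN-γ alone. Ulk1 to Ulk2 was 2.66, 3.35 and 2.72 with 4-OI, against 2.19, 2.01 and 1.999 with IFN-γ alone. Atg16l1 to Atg16l2 was lower with 4-OI, at 2.74, 2.44 and 2.48, against 3.69, 3.62 and 3.36 with IFN-γ alone. These 4 pairs had groups that did not overlap. For Atg2a to Atg2b the difference in log2 ratio was 0.995 over all libraries and 0.87 without IFN-γ replicate 1. The ratio of Wipi1 to Wipi2 was 2.47 to 2.83 with 4-OI and 2.30 to 2.93 with IFN-γ alone, and that of Map1lc3a to Map1lc3b 0.344 to 0.427 and 0.323 to 0.394, both overlapping. Over the 6 pairs compared, two-sided exact permutation tests gave p = 0.1 for the first 4, the smallest possible, and 0.9 and 0.5 for the other two, or 0.15, 0.9 and 0.6 with Benjamini-Hochberg adjustment.

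Of 85 further genes of the pathway 83 were tested, and 28 rose and 10 fell, with a median log2 fold change of 0.08. The shares were 33.7% higher and 12.05% lower, against 22.7% and 25.4% of all genes. At least a 2-fold change was found for 5 genes, 6.02% of the list against 17.5% of all genes, and all 5 were higher and kept their calls under all 15 alternatives. Sqstm1, which encodes the ubiquitin-binding cargo receptor p62, had 3089, 3118 and 3259 CPM with 4-OI, against 530.1, 612 and 605 CPM with IFN-γ alone (log2 fold change 2.44 ± 0.11; edgeR adjusted p = 2.49e-06). Pink1, the kinase gene that marks damaged mitochondria for autophagy, had 104, 106 and 118 CPM with 4-OI, against 40.8, 53.3 and 50.6 CPM with IFN-γ alone (log2 fold change 1.18 ± 0.12; edgeR adjusted p = 0.000120). In both genes the groups lay apart.

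Among other early factors 6 of 14 rose and 2 fell, or 42.9% and 14.3%, against 22.7% and 25.4% of all genes tested. The list includes genes known for restraining autophagy, and both genes that fell are of that kind. Vmp1, which encodes a lipid scramblase of the endoplasmic reticulum needed for autophagosome formation, had 559.9, 573 and 674 CPM with 4-OI, against 157, 212 and 205 CPM with IFN-γ alone (log2 fold change 1.65 ± 0.14; edgeR adjusted p = 4.88e-05). Wdr45, which encodes the WIPI family protein WIPI4, had 54.1, 54.8 and 59.7 CPM with 4-OI, against 15.4, 19.7 and 23.1 CPM with IFN-γ alone (log2 fold change 1.54 ± 0.14; edgeR adjusted p = 8.52e-05). Neither gene's groups overlapped, while Wipi1 and Wipi2 had log2 fold changes of 0.48 and 0.50. Of Vmp1, 1.38% of exon bases overlap Mir21a on the same strand, which had 0 counts over all libraries. Whether reads of a longer Mir21a transcript are among those of Vmp1 was not tested.

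Upstream, TORC1 is the kinase complex that restrains autophagy when nutrients are plentiful, and Rag GTPases place it on the lysosome. Of 23 genes for TORC1 and its nutrient sensors 10 rose and 4 fell, or 43.5% and 17.4%, against 22.7% and 25.4% of all genes tested. The list pools genes that act for TORC1 with genes that act against it. These counts therefore give no direction for the activity of TORC1, which was not measured. Rragd, which encodes the Rag GTPase RagD, had 30.4, 30.3 and 32.2 CPM with 4-OI, against 6.25, 6.11 and 6.03 CPM with IFN-γ alone, groups far apart with little spread (log2 fold change 2.34 ± 0.09; edgeR adjusted p = 1.96e-06). Mtor, the kinase itself, had 40.0, 38.0 and 32.6 CPM with 4-OI, against 69.9, 45.0 and 47.4 CPM with IFN-γ alone (log2 fold change -0.55 ± 0.18; edgeR adjusted p = 0.0321). The highest value was that of IFN-γ replicate 1, without which the log2 fold change was -0.33 (and -0.25 without IFN-γ+4-OI replicate 3 as well), and the call was lost without any 1 of the 3 libraries with 4-OI.

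Of the factors that switch on autophagy and lysosome genes, Tfe3 rose, with 76.0, 75.9 and 72.2 CPM with 4-OI, against 52.2, 52.9 and 54.5 CPM with IFN-γ alone (edgeR adjusted p = 0.00109), which did not hold under total-count scaling. Tfeb had 16.3, 16.9 and 18.4 CPM with 4-OI, against 15.7, 20.1 and 16.9 CPM with IFN-γ alone, overlapping groups (log2 fold change -0.03 ± 0.11; edgeR adjusted p = 0.848). With total-count scaling Tfeb passed as lower (log2 fold change -0.29; edgeR adjusted p = 0.0482). Mitf had 42.7, 41.7 and 40.9 CPM with 4-OI, against 59.9, 48.4 and 52.3 CPM with IFN-γ alone, and fell by 0.36 on the log2 scale (edgeR adjusted p = 0.0179), a call lost without any 1 of the 3 libraries with 4-OI. Of 7 genes for the energy sensor AMPK and its upstream kinase, encoded by Stk11, 2 rose and 1 fell. Of 15 for fusion with lysosomes 3 rose and 1 fell. The shares higher, 28.6% and 20.0%, lay near the 22.7% of all genes tested. The shares lower, 14.3% and 6.67%, lay below the 25.4% of all genes.

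**Figure D5:**
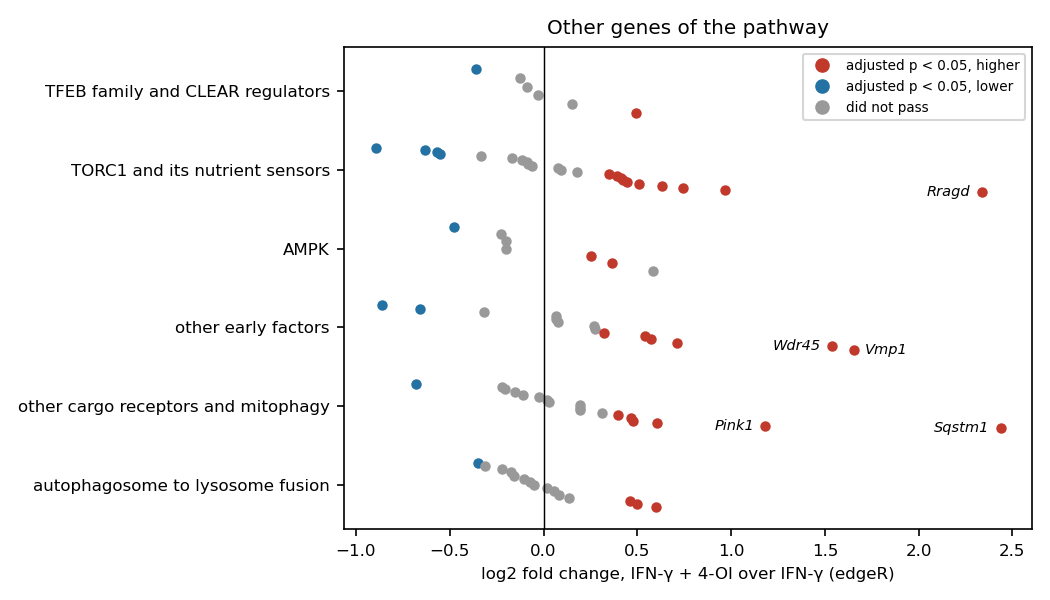
Log2 fold change, IFN-γ+4-OI over IFN-γ, from edgeR with 3 libraries a group (x axis), of the 83 further pathway genes tested, 1 point a gene, in 6 lists from top to bottom. Red points are the 28 higher and blue points the 10 lower at an adjusted p under 0.05, and grey points the 45 that did not pass. The 5 genes changed at least 2-fold are named, and all lie to the right.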

How the data were processed

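Libraries were prepared from mRNA with strand information kept, per the labels' protocols, with medium changed on day 3 and day 5 of culture. The authors deposited 1 table per library with whole-number counts, TPM and FPKM per gene. HISAT2 and mm10 are named, per the submitters' processing notes; how reads were assigned to genes, with or without strand, and which annotation was used are not stated there. Counts and exon lengths gave back the deposited TPM and FPKM (100.0% of values within a relative tolerance of 1e-06). Of 35204 genes matched to RefSeq on GRCm38.p6, 23383 had the same span from start to end, but 776 shared a start or an end. Positions thus mostly differ from GRCm38.p6 where spans do not. Gene coordinates are as deposited, on an assembly that may not be mm10, and promoters alone are on GRCm38.p6.

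Counts were tested with edgeR 4.0.16 in R 4.3.3: filterByExpr (minimum count 10), TMM factors, robust quasi-likelihood test of all 6 libraries, Benjamini-Hochberg over 14011 genes at 0.05. CPM are TMM-scaled and errors of fold changes are SE. Libraries were grouped by title. Replicates differed beyond sampling noise (chi-square per gene at least 4.34). By the rule for named genes, values by library are given for genes that passed with at least a 1.5-fold change (2-fold for further pathway genes) and for Becn1, Atg5, Atg7, Map1lc3b, Stx17, Tfeb, Tfe3, Mitf, Sqstm1 and Mtor; others shown so were chosen after their values were seen. One gene of the further pathway list is not reported here. The autophagy genes and lists were chosen with earlier results of these data known. Alternatives were RLE, upper quartile and total-count scaling, no filter, at least 1 CPM in 3 libraries, limma-voom 3.58.1, DESeq2 1.42.0, the replicate number as a block, and each library left out; leaving out 2 libraries together was added after the data had been seen.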

Additional observations from a re-analysis of the deposited data

How the results depend on the processing

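Of the 22 autophagy genes called, 10 kept their call under all 15 alternatives and 12 lost it under at least 1, and of the 15 not called 8 passed under at least 1. With total-count scaling 8 autophagy genes were higher and 7 lower, 11 further pathway genes higher and 30 lower, and 1719 of all genes higher and 5452 lower, against 3181 and 3555; of all calls 24.0% were then higher, against 47.2%. Without IFN-γ replicate 1 and IFN-γ+4-OI replicate 3, which leaves 2 libraries a group, 22 autophagy genes were higher and 7 lower, and 43 further pathway genes higher and 20 lower. Leaving out single libraries gave 16 to 19 autophagy genes higher and 2 to 6 lower, the 2 being without IFN-γ+4-OI replicate 1. The cause of these changes was not tested. DESeq2 and limma-voom called the same 18 rises and 4 falls.

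Same-numbered libraries deviated together with correlations of 0.26, -0.10 and 0.19, and IFN-γ+4-OI replicate 3 correlated best with IFN-γ replicate 2, at 0.31. With 3 libraries a group these values cannot decide whether the number marks a pairing. The labels state none, so the main test used none. With the replicate block 19 autophagy genes were higher and 5 lower, adding Gabarap as higher and Atg16l1 as lower, and 7513 of all genes were called, against 6736. At 3 libraries a group the exact permutation tests of shares and ratios cannot go below 0.1; the difference in the Gabarapl1 share was 14.5 to 17.2 percentage points without single libraries and 18.1 from counts not divided by length.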
